A study of Mus musculus with 15 samples.

Results

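The 10 genes described here belong to the Wnt pathway of the mouse. They are *Lgr6*, *Daam1*, *Ctnnb1*, *Lef1*, *Tcf7*, *Axin1*, *Axin2*, *Rnf43*, *Fzd6* and *Lrp6*, found by their Ensembl identifiers among the 41388 genes counted in each library. *Lgr6* and *Daam1* were chosen on their levels in *Foxp1*-mutated clones against parental cells, so their values in that comparison are a description with no test. The set was completed with known components of the same pathway. Of the 10 genes, 7 passed a filter on low counts that left 13904 genes to test, and *Tcf7*, *Axin2* and *Fzd6* did not.

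A20 is a B-cell lymphoma line of the BALB/c mouse. RNA sequencing was performed on parental A20 cells, which were wild type for *Foxp1*, and on 4 clones in which CRISPR/Cas9 had mutated this gene, which encodes a forkhead transcription factor. E6.1 and E6.2 carried a mutation in exon 6, and E7.1 and E7.2 carried one in exon 7. There were 3 libraries per line, made from separate passages, and 15 in all, so the spread reported is that between passages of a line. According to the study's methods, each clone was grown from a single cell after sorting and carried its own insertion or deletion with a premature stop codon. The comparator was the parental line and not a clone selected in the same way, so an effect of the mutation and a property of the founding cell cannot be told apart. Levels are given as normalised CPM, that is, a gene's read pairs relative to the TMM-scaled size of its library, and as FPKM (CPM per kilobase of exon) where genes are compared with each other.

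Total counts ranged from 26328054 to 39181530 per library, and a floor of 3 counts corresponded to between 0.0751 and 0.118 CPM, which covers counting error only. *Foxp1* itself was counted at 138 ± 32.7 CPM in parental cells. E6.1 and E6.2 stood at 104 ± 4.60 and 106 ± 2.38 CPM, and the E7 clones lower, with 56.8 ± 13.0 CPM for E7.1 and 43.0 ± 8.19 for E7.2 (SD, n = 3). The libraries of E6.1 and of E6.2 overlapped the parental ones, and neither clone passed edgeR's test against parental cells (adjusted p of 0.765 and 0.417). E7.1 and E7.2 passed it (adjusted p of 0.00688 and 0.00116 from edgeR). The 7 B-cell markers examined summed to between 297 and 540 FPKM per library, while the 7 T-cell and 5 fibroblast markers were each under 1 FPKM in every library, as were 4 of 5 markers of myeloid cells and 4 of 5 of epithelial cells. Replicate 3 of E6.2 and replicate 3 of E7.2 stood apart, because their deviations from the means of their own lines resembled each other more (r = 0.461 across genes) than those of any other pair of libraries from different lines. Several values that rest on them are marked below.

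Wnt proteins are secreted signals that bind a Frizzled receptor together with the co-receptor *Lrp5* or *Lrp6*. In the canonical branch, binding recruits Dishevelled and Axin to the membrane and stops the destruction complex from marking beta-catenin (*Ctnnb1*) for degradation, so that beta-catenin enters the nucleus and acts with factors of the *Lef1* and *Tcf7* family. R-spondins bind *Lgr4*, *Lgr5* or *Lgr6* and hold back *Rnf43* and *Znrf3*, which otherwise remove Frizzled receptors from the surface, while *Daam1* belongs to the branch that runs from Dishevelled to the actin cytoskeleton. In lymphocytes the pathway is best known from the early stages of B-cell and T-cell development.

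Promoter sequence is shown for *Lgr6* and *Daam1*, which were lower together in 3 clones, and for *Axin2*, a standard target of beta-catenin that was not counted in any library. Each sequence is the 250 bases before the start of transcription, read 5′ to 3′ on the strand of the gene from the RefSeq promoter windows of GRCm38.p6, and capitals mark CG dinucleotides. *Lgr6* lies on the minus strand (chr1:135105277-135105526), and the *Daam1* sequence is that of the first of its windows (chr12:71830818-71831067, plus strand). *Axin2* is on the plus strand (chr11:108920099-108920348).
Lgr6: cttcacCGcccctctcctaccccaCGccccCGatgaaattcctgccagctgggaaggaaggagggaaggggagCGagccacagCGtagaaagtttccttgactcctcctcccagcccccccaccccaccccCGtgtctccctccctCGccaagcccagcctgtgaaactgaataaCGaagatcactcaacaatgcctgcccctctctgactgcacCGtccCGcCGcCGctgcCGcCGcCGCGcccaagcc
Daam1: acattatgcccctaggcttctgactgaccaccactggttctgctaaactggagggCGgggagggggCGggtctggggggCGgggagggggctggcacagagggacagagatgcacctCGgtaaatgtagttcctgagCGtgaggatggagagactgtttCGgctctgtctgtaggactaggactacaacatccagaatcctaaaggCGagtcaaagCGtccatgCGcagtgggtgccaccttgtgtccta
Axin2: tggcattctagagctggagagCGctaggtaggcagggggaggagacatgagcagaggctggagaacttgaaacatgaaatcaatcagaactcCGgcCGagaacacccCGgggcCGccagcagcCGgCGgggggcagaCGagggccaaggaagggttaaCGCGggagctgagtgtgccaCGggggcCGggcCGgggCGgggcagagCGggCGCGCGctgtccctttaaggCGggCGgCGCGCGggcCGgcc
The G and C content was 65.2% for *Lgr6*, 58.0% for *Daam1* and 69.2% for *Axin2*, with 16, 9 and 24 CG dinucleotides. RefSeq windows of 300 bases, which add the 50 bases after the start, were matched for 7 of the 10 genes (14 windows), and *Axin1*, *Fzd6* and *Lrp6* had no entry. The TCF/LEF motifs CTTTGAT and CTTTGAA, searched on both strands, were in 0 of the 14 windows, and they occur in 3.73% and 5.14% of all 32851 windows. The forkhead motif GTAAACA, also searched on both strands, was in 1 window, the second of *Tcf7* (chr11:52282546-52282845, minus strand), where it begins 1 base after the start, and it occurs in 3.65% of all windows. These letter matches are a description of the windows only.

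Most of the intracellular machinery was counted in A20 cells, and few of the ligands and receptors were. On a wider list of 131 Wnt pathway genes, 63 were tested, of which 56 are outside the 10. Among 19 ligands, 2 were tested (*Wnt10a*, mean 2.06 FPKM over the 15 libraries, and *Wnt2b*), and 7 had 0 counts in all libraries. The mean of *Wnt10a* includes high values in the libraries that stood apart, which are given below. The secretion factors *Porcn* and *Wls* held at most 3 and 4 counts in any library, and none of the 4 R-spondins was tested. Of 16 receptors and co-receptors, 4 were tested, led by *Ryk* at 15.6 FPKM, with *Lrp6*, *Fzd5* and *Fzd7*. In contrast, 16 of 18 genes of the destruction complex group and 18 of 23 genes for beta-catenin and its nuclear partners were tested, with *Csnk1a1*, a kinase that primes beta-catenin for degradation, at 55.1 FPKM and *Ctnnb1* at 59.7. The destruction complex group is wide and also holds *Csnk1g1*, *Csnk1g2*, *Csnk1g3*, *Tnks*, *Tnks2* and *Rnf146*. The largest value in the list was that of *Rhoa*, a small GTPase of the polarity branch, at 255 FPKM. Of the 6 other target genes listed, 4 were tested, with *Myc* at 55.3 FPKM, *Ppard* at 1.15, *Ccnd1* at 0.108 and *Cd44* at 0.0803, while *Sp5* and *Sox4*, like *Axin2*, had 0 counts throughout.

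**Figure D1:**
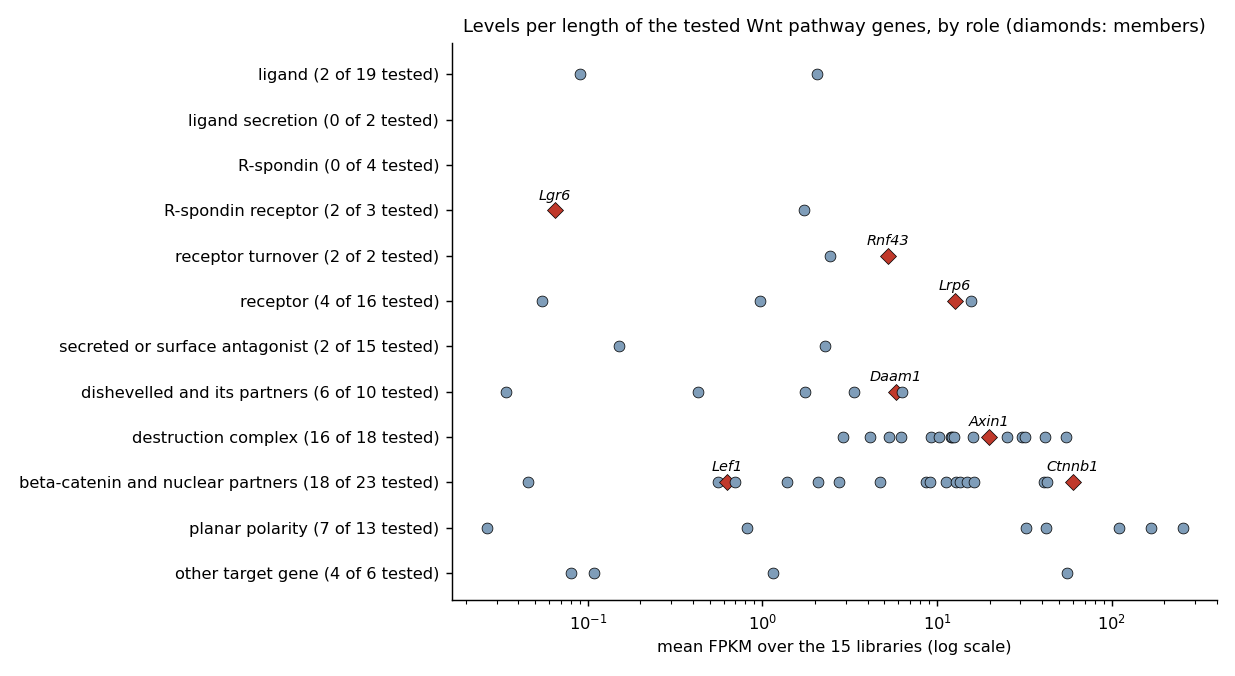
Mean FPKM over the 15 libraries (x axis, log scale) of the tested genes of the Wnt pathway list, in rows by role, with the 10 genes that are the subject here as red diamonds where tested. *Lgr6* lies at the low end of the scale, *Lef1* near 1 FPKM, and *Ctnnb1* at 59.7 FPKM.

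*Lgr6* (ENSMUSG00000042793, chromosome 1 from 134983301 to 135105276, minus strand) encodes a receptor for R-spondins. The parental libraries held 54, 46 and 45 counts of *Lgr6*. Those of E6.1 held 7, 6 and 10, and those of E6.2 held 7, 7 and 8. E7.1 had 3, 6 and 2 counts, so that 2 of its 3 libraries were at or under the floor, and E7.2 had 6, 8 and 13. The 13 counts were in replicate 3 of E7.2, one of the libraries that stood apart. All 12 clone libraries lay below all 3 parental libraries. The mean level was 1.39 ± 0.214 CPM in parental cells. It was 0.223 ± 0.027 CPM for E6.1 and 0.243 ± 0.032 for E6.2, and among the E7 clones 0.0977 ± 0.0491 for E7.1 and 0.263 ± 0.136 for E7.2 (SD, n = 3). Relative to the parental mean the clones kept 16.0%, 17.4%, 7.03% and 18.9%, and the log2 differences were -2.62 ± 0.43, -2.51 ± 0.43, -3.76 ± 0.46 and -2.40 ± 0.42 (SE from edgeR). Less *Lgr6* RNA per cell and fewer cells with *Lgr6* RNA cannot be told apart in these libraries.

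The 4 clones were then compared with each other, which does not use the parental level. The clone libraries are those on which *Lgr6* and *Daam1* were chosen, so tests between clones are not independent of that choice. *Lgr6* did not pass the test among clones (quasi-likelihood test of edgeR, adjusted p = 0.187), nor did the difference of the E7 from the E6 clones (log2 -0.52 ± 0.33 SE, adjusted p = 0.30 from edgeR). All 3 E7.2 libraries were above all 3 E7.1 libraries, at a log2 difference of 1.36 ± 0.48 (SE) with an adjusted p of 0.271 from edgeR. Without replicate 3 of E7.2, one of the libraries that stood apart, this log2 difference was 0.89. E6.2 differed from E6.1 by 0.11 ± 0.46 (SE, adjusted p = 0.949 from edgeR). These comparisons rest on 2 to 13 counts per library. The related receptor *Lgr4* was more abundant, at 12.8 ± 5.49 CPM in parental cells and between 7.12 ± 1.86 (E6.2) and 13.1 ± 1.37 (E7.2) in the clones, and was not called in any comparison. *Lgr5* held at most 3 counts in any library. Per length, *Lgr6* stood at 0.203 ± 0.0312 FPKM in parental cells, where *Lgr4* stood at 2.17.

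*Daam1* (ENSMUSG00000034574, chromosome 12 from 71831078 to 71992367, plus strand) encodes a formin that binds Dishevelled and acts on the actin cytoskeleton. Its level was 44.1, 52.0 and 47.8 CPM in the parental libraries. It was 20.6, 25.4 and 23.5 CPM in E6.1, 18.2, 19.6 and 19.6 in E6.2, and 21.9, 23.5 and 23.7 in E7.1. In E7.2 it was 65.2, 66.7 and 50.6 CPM. The 9 libraries of E6.1, E6.2 and E7.1 lay below every parental library, whereas 2 E7.2 libraries lay above every parental library and replicate 3 lay within the parental range. Replicate 3 of E7.2 is one of the libraries that stood apart. Without it the log2 difference of E7.2 from parental cells was 0.49. As a share of the parental mean, *Daam1* stood at 48.2% and 39.8% in the E6 clones and at 48.0% and 127% in the E7 clones, each time clone 1 before clone 2, with log2 differences of -1.05, -1.33, -1.06 and 0.34 (each ± 0.13 SE from edgeR). The counts of *Daam1* may be affected by *Gm7985*, which overlaps it on the other strand, since the counting took no account of strand. Whether the exons of both genes overlap was not examined.

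*Daam1* differed among the 4 clones (quasi-likelihood test of edgeR, adjusted p = 5.81e-06). Like the other comparisons of clones below, this test reuses the clone libraries on which *Daam1* was chosen. The difference lay between clones of one exon, because E7.2 exceeded E7.1 by 1.40 ± 0.134 on the log2 scale (SE, adjusted p = 5.68e-05 from edgeR), with all 3 libraries higher. Without replicate 3 of E7.2 this log2 difference was 1.53. E6.2 and E6.1 differed by -0.28 ± 0.13 (SE, adjusted p = 0.402 from edgeR), although all 3 libraries of E6.2 were below all 3 of E6.1. The mean of the E7 clones exceeded that of the E6 clones by 0.83 ± 0.094 (SE, adjusted p = 0.000212 from edgeR), but the libraries of the exons overlapped, and E7.1 at 23.0 ± 1.02 CPM stood beside E6.1 at 23.1 ± 2.43 CPM. By library ranges, the order of the lines was E7.2 and parental cells, which overlapped, then E6.1 and E7.1, which also overlapped, and then E6.2. The step from E6.1 to E6.2 did not pass the test. Mean *Foxp1* RNA was lowest in E7.2 and next in E7.1, but their libraries overlapped (log2 difference -0.40, adjusted p = 0.391 from edgeR). A relation of *Daam1* to the level of *Foxp1* was not tested. *Daam2*, the other member of the family, held between 2 and 15 counts per library and was not called in any comparison.

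**Figure D2:**
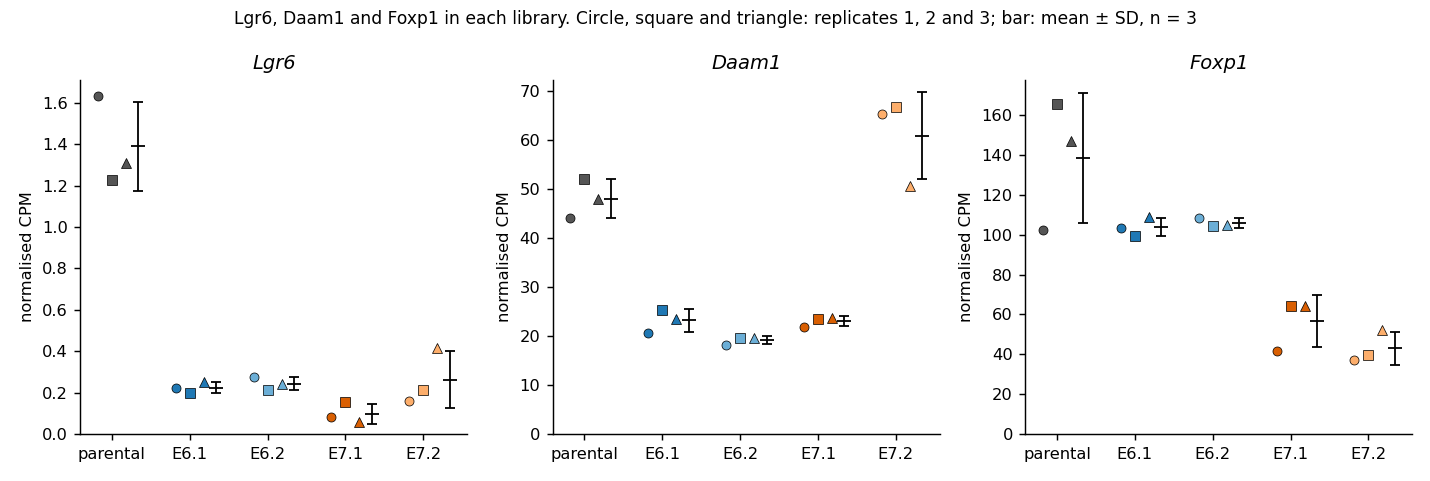
Normalised CPM (y axes) of *Lgr6*, *Daam1* and *Foxp1* in each library of the 5 lines, with the symbol marking the replicate and the bar giving the mean ± SD of 3 libraries. *Lgr6* was below the parental range in all 12 clone libraries, while *Daam1* was below it in 9 and reached 65.2 and 66.7 CPM in 2 libraries of E7.2.

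*Rnf43* (ENSMUSG00000034177, chromosome 11 from 87662722 to 87735539) encodes a ubiquitin ligase that removes Frizzled from the cell surface. It was counted at 40.6, 33.5 and 29.8 CPM in the parental libraries, 24.4, 29.5 and 27.7 in E6.1, and 35.1, 32.7 and 35.5 in E6.2. E7.1 stood at 47.1, 42.5 and 43.2 CPM, above the libraries of every other line, and E7.2 at 31.4, 35.0 and 29.6. *Rnf43* differed among the clones (adjusted p = 0.0248 from edgeR), with means from 27.2 ± 2.63 CPM in E6.1 to 44.3 ± 2.48 in E7.1, a ratio of 1.63. This call was lost when replicate 1 or 3 of E6.1 or any 1 replicate of E7.1 was left out (adjusted p from 0.0610 to 0.0942 from edgeR). No clone was called against parental cells, with log2 differences of -0.35 and -0.01 in the E6 clones, E6.1 first (edgeR's adjusted p of 0.576 and 0.978), and of 0.35 and -0.11 in the E7 clones, E7.1 first (0.158 and 0.707). E7.1 against parental cells became a call without parental replicate 1 (adjusted p = 0.0419 from edgeR). *Rnf43* in the E7 clones was above that in the E6 clones by 0.30 ± 0.09 (SE, adjusted p = 0.0523 from edgeR), which 7 of 22 alternatives called. The difference of E7.2 from E7.1 was -0.47 ± 0.13 (SE, adjusted p = 0.190 from edgeR). *Rnf43* overlaps *Gm25968* on the other strand and *1110028F11Rik* on the same strand, and the counting took no account of strand. Overlap of their exons was not examined. *Znrf3*, the second ligase of this kind, stood between 16.4 ± 1.65 CPM (E7.2) and 25.7 ± 6.08 (E6.2). It was not called by edgeR in any comparison with all libraries. Among the clones *Znrf3* was called by DESeq2 and by edgeR without replicate 3 of E6.2, one of the libraries that stood apart, which also made it a call between the exons.

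*Lrp6* (ENSMUSG00000030201, chromosome 6 from 134446476 to 134566965) encodes the co-receptor for Wnt ligands and was the third most abundant of the 10 genes per length after *Ctnnb1* and *Axin1*, at 14.2 ± 0.999 FPKM in parental cells. Parental libraries stood at 144, 146 and 128 CPM, E6.1 at 129, 120 and 114, and E6.2 at 165, 127 and 116. E7.1 stood at 103, 117 and 123 CPM, and E7.2 at 104, 118 and 103. All 6 libraries of the E7 clones lay below the parental range, and the log2 differences of -0.29 for E7.1 and -0.36 for E7.2 did not pass edgeR's test (adjusted p of 0.263 and 0.301). In E6.1 and E6.2 the differences were -0.20 and -0.04. The other co-receptor, *Lrp5*, held at most 7 counts. *Fzd6* (ENSMUSG00000022297, chromosome 15 from 39006280 to 39038186), a Frizzled receptor, was represented by a single count in replicate 3 of E7.1 and by 0 in the other 14 libraries. Of the remaining Frizzled genes, *Fzd5* was counted at 6.81 ± 1.07 CPM in parental cells and *Fzd7* at 0.197 ± 0.149, and *Fzd1*, *Fzd2*, *Fzd3*, *Fzd4*, *Fzd8*, *Fzd9* and *Fzd10* held between 0 and 6 counts at most.

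*Axin1* (ENSMUSG00000024182, chromosome 17 from 26138688 to 26195811) encodes the scaffold of the destruction complex. Its levels were 60.1, 73.2 and 67.8 CPM in parental cells, 78.4, 77.6 and 72.1 in E6.1, and 61.4, 74.3 and 107 in E6.2. They were 76.9, 71.7 and 71.9 CPM in E7.1 and 76.3, 80.2 and 85.8 in E7.2. Apart from the 107 CPM of E6.2 replicate 3, one of the libraries that stood apart, the values lay between 60.1 and 85.8 CPM. The log2 differences from parental cells were 0.18 and 0.27 in the E6 clones and 0.13 and 0.27 in the E7 clones, each ± 0.16 (SE) and with adjusted p values from 0.474 to 0.956 (edgeR). *Axin2* (ENSMUSG00000000142, chromosome 11 from 108920349 to 108950783), its paralog and a target of the canonical branch, had a count of 0 in all 15 libraries, which allows a level of up to 0.118 CPM in the shallowest. Of the 16 tested genes of the destruction complex group, edgeR called none in any clone against parental cells with all libraries, while DESeq2, and edgeR without replicate 3 of E6.2, called *Csnk1g3* and *Gsk3a* in E7.1.

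*Ctnnb1* (ENSMUSG00000006932, chromosome 9 from 120929216 to 120960507), which encodes beta-catenin, was the most abundant of the 10 per length, at 55.1 ± 0.273 FPKM in parental cells and between 57.1 ± 0.579 (E6.1) and 69.1 ± 9.51 (E7.1) in the clones. In CPM it stood at 283, 281 and 280 in the parental libraries and at 396, 300.2 and 360 in E7.1, where the log2 difference of 0.32 ± 0.13 (SE) did not pass the test (adjusted p = 0.194 from edgeR). The other clones differed from parental cells by 0.05, 0.09 and 0.09. The gene overlaps *Ulk4* and *4930593C16Rik* on the other strand, and 1 of these has counts.

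*Lef1* (ENSMUSG00000027985, chromosome 3 from 131110471 to 131224356) encodes a nuclear partner of beta-catenin. It was counted at 4.05, 8.38 and 10.7 CPM in parental cells, 3.17, 3.27 and 2.65 in E6.1, and 3.78, 4.05 and 1.504 in E6.2. It was 5.30, 6.92 and 6.03 CPM in E7.1 and 6.00, 7.04 and 8.92 in E7.2. All 6 libraries of the E7 clones were above all 6 of the E6 clones, and the difference of 1.12 ± 0.26 on the log2 scale was significant (SE, adjusted p = 0.0182 from edgeR). The call was lost without replicate 1 or replicate 3 of E6.1 (adjusted p of 0.0531 and 0.0582 from edgeR). It remained without replicate 3 of E6.2, which had the lowest value. Against parental cells the log2 differences were -1.34 ± 0.37 for E6.1 and -1.31 ± 0.37 for E6.2 (edgeR's adjusted p of 0.249 and 0.142). They were -0.34 ± 0.36 for E7.1 and -0.07 ± 0.36 for E7.2 (0.639 and 0.939, SE from edgeR). The parental libraries themselves spread from 4.05 to 10.7 CPM, and DESeq2's Wald test called E6.1 and E6.2 (adjusted p of 0.0322 and 0.0282). The test among the clones gave an adjusted p of 0.0598 from edgeR, and 6 of 21 alternatives called it. Within an exon *Lef1* differed by 0.04 between E6.2 and E6.1 and by 0.27 between E7.2 and E7.1 (adjusted p of 0.979 and 0.771 from edgeR). The spread of exons and that of single clones cannot be told apart with 2 clones per exon.

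*Tcf7* (ENSMUSG00000000782, chromosome 11 from 52252371 to 52283014), the relative of *Lef1* best known from T cells, was too low to test. It held 1, 0 and 0 counts in parental cells, 0, 4 and 0 in E6.1, 14, 2 and 9 in E6.2, 1, 0 and 0 in E7.1, and 2, 2 and 29 in E7.2. The highest value, 29 counts, was in replicate 3 of E7.2, one of the libraries that stood apart, and T-cell markers summed to at most 0.159 FPKM in any library. *Tcf7* overlaps *Gm26551* and *A630014C17Rik*. Of the other factors of the family, *Tcf7l2* stood at 6.30 ± 0.736 CPM in parental cells and from 4.69 ± 2.82 (E6.2) to 7.36 ± 0.388 (E7.1) in the clones, with the lowest values, 1.62 and 3.72 CPM, in the third replicates of these clones that stood apart (E6.2 and E7.2). *Tcf7l1* held at most 5 counts.

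**Figure D3:**
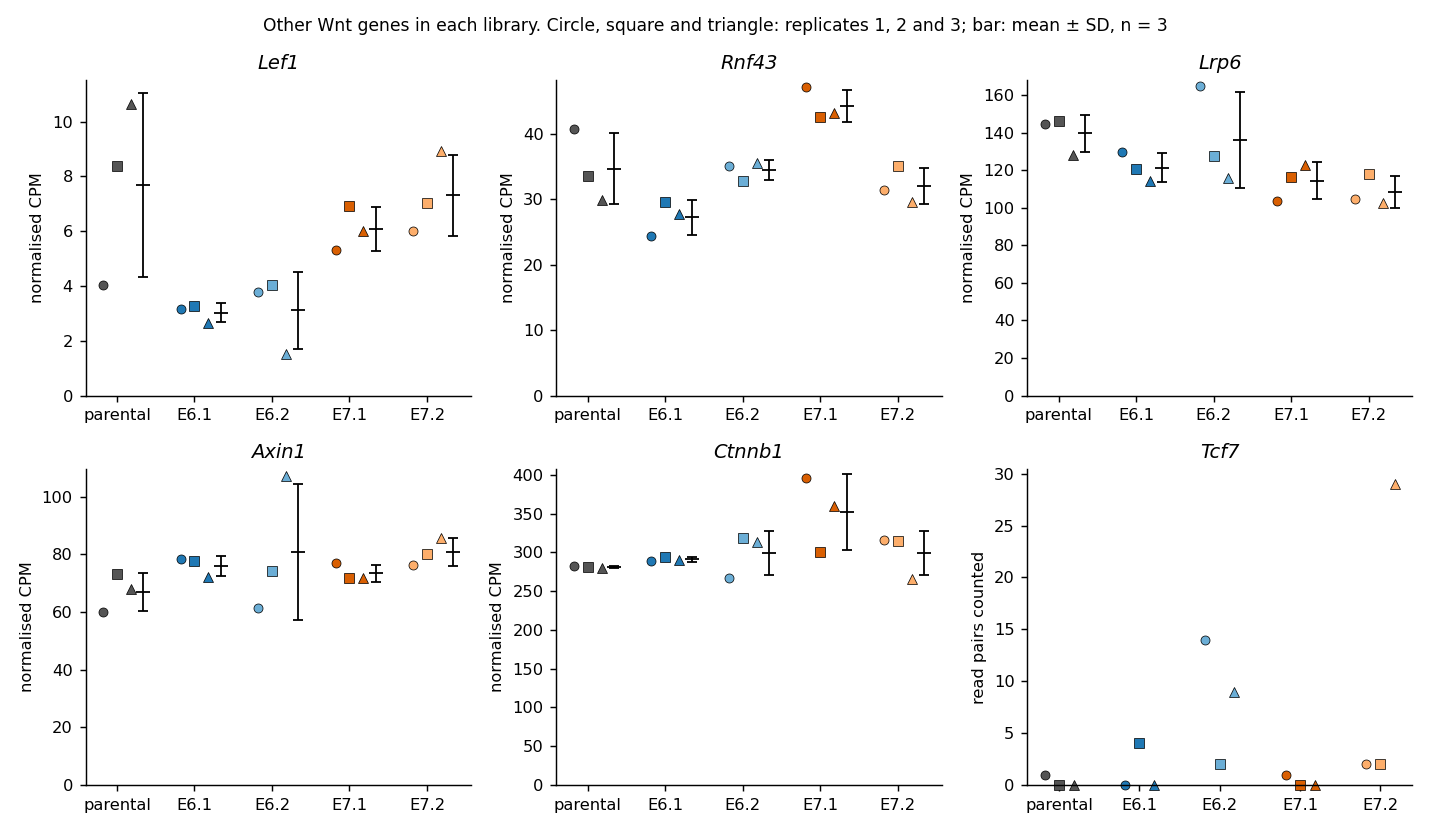
Levels of *Lef1*, *Rnf43*, *Lrp6*, *Axin1* and *Ctnnb1* (normalised CPM) and of *Tcf7* (read pairs counted) in each library, with the mean ± SD of 3 libraries beside the points where CPM is shown. The 6 *Lef1* values of the E7 clones lie above the 6 of the E6 clones, the 3 *Rnf43* values of E7.1 lie above those of all other lines, and *Tcf7* reaches 29 counts in 1 library.

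Against parental cells, *Lgr6* was called lower in all 4 clones and *Daam1* in all except E7.2, which is what they were chosen on. With all libraries edgeR called none of the other 5 tested genes in any clone, and the exceptions were *Lef1* in both E6 clones by DESeq2, *Lef1* in E6.1 by edgeR without replicate 3 of both E6.2 and E7.2 (adjusted p = 0.0484), and *Rnf43* in E7.1 without parental replicate 1. Over all tested genes, 0.266% were called lower and 0.0575% higher in E6.1. The shares lower and higher were 1.01% and 0.165% for E6.2, 0.82% and 0.396% for E7.1, and 0.209% and 0.0863% for E7.2. With 1 library left out at a time, the log2 difference of *Lgr6* lay between -2.71 and -2.49 in E6.1, -2.61 and -2.37 in E6.2, -4.23 and -3.52 in E7.1, and -2.84 and -2.13 in E7.2. The call of *Lgr6* was kept in 9 of these 15 fits in E6.1 and in 6 of 15 in E7.2. In E6.2 and in E7.1 it was kept in all 15. As *Lgr6* was chosen on this comparison, these counts describe that choice and are no support for a difference.

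**Figure D4:**
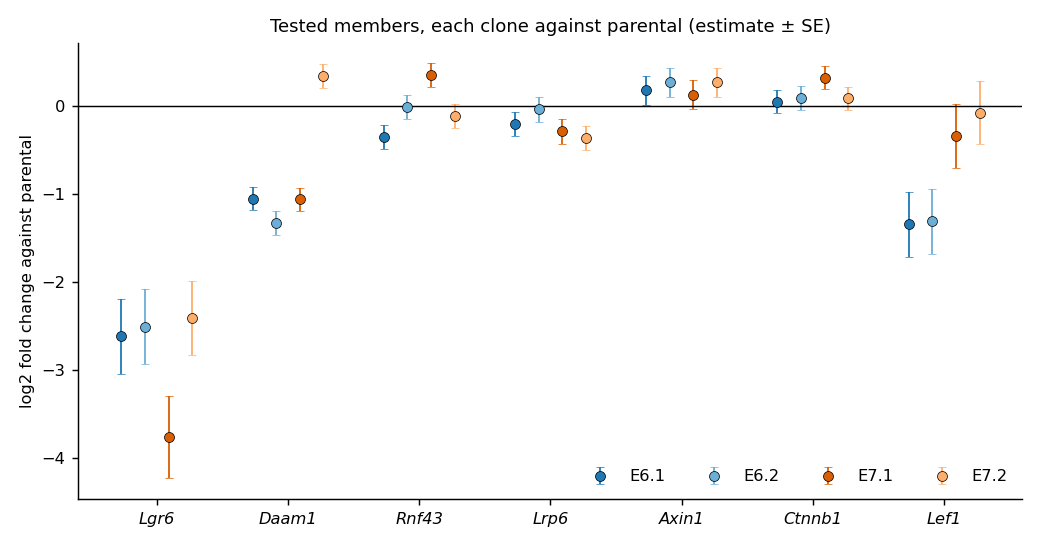
Log2 fold change against parental cells (y axis) of the 7 tested genes in each clone, as estimates ± SE from edgeR. *Lgr6* lies between -2.40 and -3.76 in the 4 clones, *Daam1* near -1 in 3 clones and at 0.34 in E7.2, *Lef1* at -1.34 and -1.31 in the E6 clones, and *Rnf43*, *Lrp6*, *Axin1* and *Ctnnb1* lie within 0.4 of 0.

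Among the 56 tested pathway genes outside the 10, only *Vangl2* was called against parental cells, and only in E6.2. *Vangl2* encodes a core protein of planar cell polarity and was counted at 7.86, 5.18 and 5.42 CPM in parental cells. It was 4.06, 6.18 and 4.55 CPM in E6.1, 2.05, 2.75 and 2.59 in E6.2, 4.74, 6.41 and 7.04 in E7.1, and 8.90, 9.92 and 7.63 in E7.2. The 3 libraries of E6.2 were below those of every other line, and E6.2 differed from parental cells by -1.32 ± 0.248 (SE, adjusted p = 0.0149 from edgeR). That call was lost without parental replicate 1 or E6.2 replicate 1 (adjusted p of at most 0.0957 from edgeR). The difference of E6.2 from E6.1 was -0.998 ± 0.247 (SE, adjusted p = 0.0722 from edgeR). At an unadjusted p under 0.05, 5 and 5 of the 56 passed in the E6 clones and 6 and 7 in the E7 clones, clone 1 before clone 2 (8.93%, 8.93%, 10.7% and 12.5%), against 6.71%, 13.1%, 19.95% and 13.3% of all tested genes. The median log2 difference of the 56 was -0.08, 0.06, -0.05 and -0.0014, and that of all tested genes was -0.00081, 0.06, -0.02 and 0.0043. DESeq2's Wald test called 3, 4, 5 and 2 of all 63 genes in the same order, where edgeR called 2, 3, 2 and 1, and it called 155, 398, 1157 and 254 of the 13904 genes where edgeR called 45, 163, 169 and 41. Without replicate 3 of E6.2, edgeR called 5 of the pathway genes in E7.1 (adding *Csnk1g3*, *Gsk3a* and *Rock2*) and 2 in E7.2 (adding *Rock2*), as the calls over 14341 genes went to 1011 and 191.

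Among the 4 clones, 3 of the 63 pathway genes differed by edgeR's test, namely *Daam1*, *Rnf43* and *Vangl2* (adjusted p = 0.00359 for *Vangl2*). Over all tested genes the share was 8.26%. Without replicate 3 of E6.2 the number was 20, with 3233 genes called in the whole table in place of 1148. Without replicate 3 of both E6.2 and E7.2 it was 19, with 4268 genes called in the whole table. In the comparison of the E7 with the E6 clones, 8 of the 63 were called by edgeR, against 12.1% of all tested genes. There are 2 clones per exon, and the SE and adjusted p measure the spread between passages of a line. They do not measure the spread between clones of an exon. The higher genes in the E7 clones were *Lef1*, *Daam1*, *Vangl2* (log2 difference 1.07 ± 0.17 SE), *Csnk1g2* (0.64 ± 0.16) and *Ctnnbip1* (0.47 ± 0.14). The lower ones were *Ep300* (-0.42 ± 0.13), *Tnks* (-0.36 ± 0.10) and *Csnk1g3* (-0.36 ± 0.11). *Csnk1g2* and *Csnk1g3* encode casein kinases that act on *Lrp6*, *Ctnnbip1* a protein that keeps beta-catenin from Tcf factors, *Ep300* a histone acetyltransferase that serves as its coactivator, and *Tnks* a tankyrase that directs Axin to degradation. Of the 8, 3 belong to the wide destruction complex group of 16 tested genes (*Csnk1g2*, *Csnk1g3* and *Tnks*), with 1 higher and 2 lower, and 3 to the group of 18 nuclear genes, with 2 higher and 1 lower. Without replicate 3 of E6.2 the number was 22, with 3847 genes called in the whole table in place of 1677. Without E6.1 replicate 1 or replicate 3, with 399 and 431 genes called in the whole table, it was 2, namely *Daam1* and *Vangl2*. These genes were the only ones called in all 15 fits that left out a library, and *Csnk1g2* was called in 9, *Tnks* in 7, *Csnk1g3* in 4, *Ctnnbip1* in 3 and *Ep300* in 1. For *Daam1* and *Vangl2*, the libraries of E7.1 overlapped those of E6.1.

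**Figure D5:**
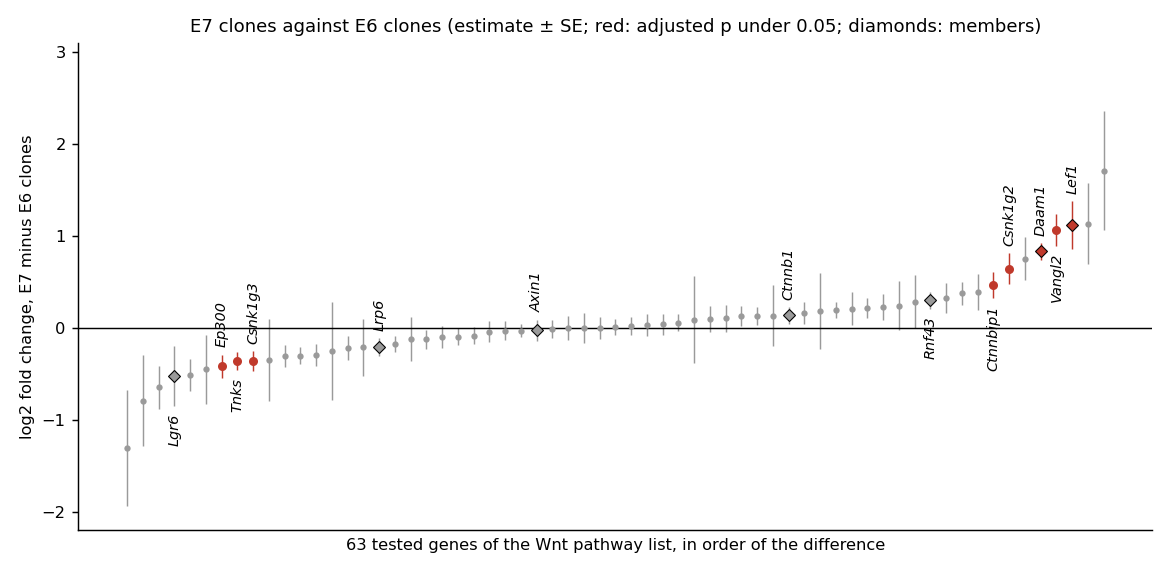
Log2 difference of the mean of the E7 clones from that of the E6 clones (y axis, estimate ± SE) for the 63 tested pathway genes in ascending order (x axis). Red marks the 8 genes with an adjusted p under 0.05, and diamonds mark the 7 tested genes of the set, of which *Lef1* at 1.12 and *Daam1* at 0.83 are red.

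Within an exon, 0 of the 63 pathway genes were called between E6.2 and E6.1 by edgeR, against 1.24% of all tested genes, with 8 at an unadjusted p under 0.05 (12.7%, against 12.9% of all genes) and 2, *Fzd5* and *Vangl2*, called by DESeq2, which called 448 of the 13904 genes. Between E7.2 and E7.1, *Daam1* was the only one called, against 0.59% of all tested genes, and it was called in all 15 fits that left out a library. Several genes of the wider list were set by the libraries that stood apart. *Kremen1*, a receptor for Dkk proteins, was counted at 52.8 CPM in replicate 3 of E6.2 and 56.4 in replicate 3 of E7.2 and at 9.53 to 16.4 CPM in the other 13 libraries. *Dvl1*, one of the Dishevelled genes, stood at 90.1 and 59.1 CPM in the same libraries and at 20.9 to 29.1 elsewhere. *Wnt10a* reached 10.3 and 27.8 CPM there, against 0.669 and 0.877 CPM in the other libraries of E6.2 and 4.54 and 5.71 in those of E7.2.

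The chromosomal surroundings of *Lgr6* and *Daam1* were examined within 1 Mb on either side. Beside *Lgr6*, 23 tested genes had median log2 differences from parental cells of 0.03 and 0.02 in the E6 clones and 0.05 and 0.06 in the E7 clones, and none was called in any clone. Beside *Daam1*, 11 tested genes had medians of 0.05, -0.01, -0.11 and -0.19, and again none was called. With at most 1.01% of all tested genes called lower and 0.396% higher in a clone, 0 calls among so few genes say little. Single genes ranged from -2.50 to 0.88 beside *Lgr6* (both in E6.2) and from -0.55 to 1.91 beside *Daam1* (both in E7.1). The level of *Lgr6* over the 15 libraries was most like that of *Iglv2* (Pearson r = 0.970 of log2 CPM), *Phyhip* (0.963), *Ptprg* (0.958) and *Zfp979* (0.953), of which *Ptprg* was listed at 0 in all clone libraries. The points share the step from parental cells to clones, and over the 12 clone libraries alone r was between 0.322 and 0.526 for the 3 of these genes that could be compared. *Daam1* was most like *Rtkn2* (r = 0.914), *Cyb561a3* (0.901), *Prkag3* (0.868), *AB124611* (0.849) and *Pitpnc1* (0.831), and over the 12 clone libraries r was between 0.780 and 0.954. Among the clones *Daam1* was high in E7.2 alone, so r over the clone libraries may rest on that line. Between pairs of the 7 tested genes of the set, r over the 15 libraries ran from -0.597 (*Axin1* and *Lrp6*) to 0.656 (*Daam1* and *Lef1*). These correlations describe libraries of the same 5 lines and were not tested.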

How the data were processed

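RNA from A20 parental cells and 4 *Foxp1* CRISPR clones was sequenced with 3 libraries per line. Per the file headers, the authors deposited raw counts of read pairs per gene for each library, obtained with HISAT and featureCounts 1.5.0 against genes of GRCm38 plus ERCC spike-ins, without regard to strand. By the defaults of that counter, pairs with more than 1 alignment or more than 1 gene were not counted. The 92 spike-ins held 0 counts. Of 41388 genes, 40254 were matched to a symbol by identifier.

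The counts were filtered with filterByExpr, scaled with TMM and fitted with edgeR 4.0.16 (R 4.3.3, glmQLFit and glmQLFTest), with all 15 libraries in 1 model whose sole term was the line. Contrasts set each clone against parental cells, the clones with each other, the E7 with the E6 clones, and clone 2 with clone 1 of an exon. Benjamini-Hochberg adjustment ran over 13904 genes, with calls made below 0.05. The SE is the log2 fold change divided by the square root of F. Likeness was computed on log2 CPM with 0.5 CPM added. The method was tested on simulated data. The genes, lists and named genes were chosen with earlier results of these data known. Named were the 10 genes, the called pathway genes, the families of the 10, the gene with the highest FPKM in each role, and the 5 genes most like *Lgr6* and *Daam1*, of which 1 is not reported here. *Kremen1*, *Dvl1* and *Wnt10a* are the highest of their roles, and their values in the libraries that stood apart were described after they were seen.

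The alternatives were DESeq2's size factors, the tests of DESeq2 1.42.0, all genes unfiltered, a replicate block, a fit of only the lines compared, an added 2-fold threshold and the removal of each library. Removal of replicate 3 of both E6.2 and E7.2 was added after seeing the data.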

Additional observations from a re-analysis of the deposited data

Results flagged for a closer look

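Differences between clones or between the exons passed the test for the pathway genes below, 3 of 63 among the clones and 8 of 63 between the exons. Over all tested genes the shares called were 8.26% and 12.1%. *Daam1* was chosen on the same clone libraries. With 2 clones per exon, the adjusted p does not measure the spread between clones of an exon. Of 15 fits that each left out a library, 13 called *Lef1* between the exons, 9 called *Csnk1g2* and 7 called *Tnks*. *Csnk1g3* was called in 4, *Ctnnbip1* in 3 and *Ep300* in 1. Among the clones, *Rnf43* was called in 10 of the 15. Among the 4 clones, edgeR's adjusted p was 5.81e-06 for *Daam1*, 0.0248 for *Rnf43* and 0.00359 for *Vangl2*. Between the E7 and the E6 clones, the log2 difference was 0.83 for *Daam1*, 1.12 for *Lef1*, 1.07 for *Vangl2*, 0.64 for *Csnk1g2* and 0.47 for *Ctnnbip1*, and -0.36 for *Csnk1g3*, -0.42 for *Ep300* and -0.36 for *Tnks*. *Daam1* and *Lef1* differed in where the clones parted, since among the clones *Daam1* was high in E7.2 alone (60.8 ± 8.87 CPM) and *Lef1* was higher in both E7 clones (6.08 ± 0.811 and 7.32 ± 1.48 CPM) than in both E6 clones (3.03 ± 0.332 and 3.11 ± 1.40 CPM, SD, n = 3).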

How the results depend on the processing

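Of the values for single genes under the alternatives, 1117 kept their direction and their side of the threshold, 28 lost a call, 17 gained one and 14 reversed in sign. *Lgr6* against parental cells lost its call in 6 of 22 alternatives in E6.1, in 1 in E6.2 and in 11 in E7.2. It was chosen on that comparison, so the alternatives that kept its call are no support for it. The number of pathway genes called varied more. Leaving out 1 library gave 1 to 2 called genes in E6.1 (2 with all libraries), 2 to 5 in E7.1 (2), 0 to 2 in E7.2 (1), 2 to 20 among the clones (3) and 2 to 22 between the exons (8). Calls over all 14077 to 14414 tested genes ran from 28 to 69 in E6.1, 30 to 1011 in E7.1 and 14 to 191 in E7.2. They ran from 421 to 3233 among the clones and from 399 to 3847 between the exons. Without replicate 3 of both E6.2 and E7.2 the numbers were 4 in E6.1, 6 in E7.1, 19 among clones, 21 between exons and 1 between E6.2 and E6.1, with 132, 2166, 4268, 4734 and 484 of 14284 genes called in the same fits. DESeq2's test called 5 in E7.1, 2 in E7.2, 14 among clones, 14 between exons and 2 between E6.2 and E6.1, with 1157, 254, 3096, 2684 and 448 of 13904 genes called. With no filter on low counts 0 were called in E7.2 and 5 among clones, with 61 and 1839 of 24777 genes called. In fits of only the lines compared 1 was called in E6.2 and 0 in E7.2, with 45 of 13223 and 18 of 13076 genes called. An added 2-fold threshold left 2 between exons, and calls over all genes were not counted with it. Libraries with the same number deviated with correlations from -0.203 to 0.461 over all pairs of lines, and only for E6.2 with E7.2 were all 3 over 0.1 (0.232 to 0.461), so no pairing of the whole series was assumed. The replicate block called 5 between exons, without *Csnk1g3*, *Ctnnbip1* and *Ep300*, with 1402 of 13904 genes called. It changed no other number by more than 1.5 times.

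The reversed values were all small and uncalled. For *Rnf43* in E6.2 the log2 difference was 0.0072 with DESeq2's size factors, 0.0071 with DESeq2's test, 0.00085 with only the lines compared, and -0.11 to 0.13 with 1 library left out. With 1 library left out, *Lrp6* in E6.2 ranged from -0.212 to 0.0917, *Rnf43* in E7.2 from -0.208 to 0.0393, *Lef1* in E7.2 from -0.358 to 0.235 and *Axin1* between exons from -0.0796 to 0.115. Without both replicates 3, *Lrp6* in E6.2 was 0.0614 and *Axin1* between exons 0.11. The cause was not tested. DESeq2's size factors moved the median of all genes by at most 0.024. *Lgr6* rested on 2 to 13 counts per clone library, and *Tcf7*, *Axin2* and *Fzd6* did not pass the filter.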
